A study of Rattus norvegicus with 13 samples.

Results

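The core circadian clock genes are a set of 10 transcription regulators, chosen by symbol: Clock, Arntl, Npas2, Per1, Per2, Per3, Cry1, Cry2, Nr1d1 and Dbp. Each of the 10 had 1 row in the authors' deposited table of 14855 genes, which compares gene expression in adolescent male rats (SAS Sprague-Dawley) in the medial preoptic area, or MPOA, of the brain. On postnatal day 21, rats were injected on both sides with 0.5 uL of an adeno-associated virus of serotype 5 that carried GFP and, from a U6 promoter, a short hairpin RNA (shRNA). The hairpin was directed against Oprm1, the mu opioid receptor gene, in 1 group (Oprm1-AAV5) and scrambled in the other (Scr-AAV5), so that surgery, virus and GFP were common to both. The labels leave 7 scrambled and 5 Oprm1 shRNA samples in the comparison, beside 1 Oprm1 shRNA sample that they set aside as an outlier. The U6 promoter is active in cells of most types, and RNA came from tissue dissected from 200 micron sections, between −0.24 and −0.72 mm from bregma. Fewer cells of a type and less RNA per cell therefore cannot be told apart. Nothing in the labels ties a sample to a single rat, so p-values here rest on the spread between samples, which may be technical in part. Oprm1 itself, at an average of 7.32 CPM (reads scaled to library size), was at 0.670-fold, and its approximate 95% interval ran from 0.0715 to 6.27, so that its level does not check the group labels.

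The mammalian clock is a transcriptional feedback loop that runs in most cells. CLOCK, or its paralog NPAS2 in parts of the forebrain, pairs with ARNTL (also called BMAL1) and activates genes through E-box elements, among them the Period and Cryptochrome genes, whose proteins return to the nucleus and inhibit the pair. A second loop runs through Nr1d1, whose product REV-ERB alpha represses Arntl at ROR elements, and Dbp is an output gene whose protein acts at D-box elements. The suprachiasmatic nucleus, which sets the phase of the other clocks from light, lies close to the preoptic area at the base of the brain.

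None of the 10 clock genes passed an adjusted p under 0.05. Each stood at 0.9997 after adjustment in the authors' deposited table, beside 3 genes of 14855 past the threshold (0.0202%). At an unadjusted p under 0.05 the count of clock genes was also 0, against a background of 652 genes, or 4.39%. Of the 10, 6 were higher and 4 lower with Oprm1 shRNA, and the median log2 difference was 0.06 in the authors' deposited table, where 48.4% of all genes were higher and the median was −0.02. The values ran from −0.21 for Arntl to 0.61 for Npas2 on the log2 scale in the authors' deposited table. The unadjusted p-values in the authors' deposited table lay between 0.168 for Per1 and 0.889 for Cry1. A p that misses the threshold does not show equal levels, and the interval around each fold, given below, says how large a difference the data allow.

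Some of the elements through which the loop acts can be seen in the promoters of these genes. RefSeq promoters of build GRCr8, from 250 bases before to 50 after a gene start, were matched by symbol or synonym for 9 of the 10 genes, all but Cry1, in 11 windows. The authors used build Rnor_6.0, and the coordinates given here are those of GRCr8. The first promoter shown is that of Per2 (chr9:99496944-99497243, minus strand) and the second that of Arntl (chr1:176766078-176766377, plus strand), because these genes stand for the E-box and D-box class and for the ROR element class. Distances are counted to the first base of a motif, and capitals mark a D-box (TTATGTAA) and an E-box variant (CACGTT) in Per2, 192 and 62 bases before the start, and a ROR element core (TAGGTCA) in Arntl, 16 bases before the start.
Per2: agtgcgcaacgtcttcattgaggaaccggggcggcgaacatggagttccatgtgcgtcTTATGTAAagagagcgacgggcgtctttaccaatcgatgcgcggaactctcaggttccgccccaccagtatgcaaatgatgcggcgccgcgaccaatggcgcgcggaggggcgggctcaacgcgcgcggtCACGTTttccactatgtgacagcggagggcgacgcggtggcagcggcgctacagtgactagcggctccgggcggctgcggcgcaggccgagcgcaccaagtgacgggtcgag
Arntl: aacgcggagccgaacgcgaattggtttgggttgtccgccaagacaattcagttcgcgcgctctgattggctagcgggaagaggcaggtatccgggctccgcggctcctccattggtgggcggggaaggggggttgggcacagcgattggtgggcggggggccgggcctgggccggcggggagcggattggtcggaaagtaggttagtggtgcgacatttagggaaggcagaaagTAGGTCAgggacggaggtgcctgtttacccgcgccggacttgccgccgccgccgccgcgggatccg

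Short windows show the other matches among the 10 genes, each on the strand of the gene with the motif in capitals and 12 bases on either side. Nr1d1 has 2 annotated starts, both on the minus strand. The promoter at chr10:84229405-84229704 has the E-box CACGTG 191 bases before the start, and that at chr10:84231763-84232062 has CACGTT, on the opposite strand, 174 bases before the start. Cry2 (chr3:98860388-98860687, minus strand) has CACGTT on the opposite strand 212 bases before its start. A motif on the opposite strand reads AACGTG here.
Nr1d1 E-box: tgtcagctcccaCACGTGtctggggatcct
Nr1d1 E-box variant: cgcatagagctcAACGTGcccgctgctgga
Cry2 E-box variant: acacatggtgggAACGTGagggggcggggc

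Both strands were searched and no matches overlapped. The E-box CACGTG was in 1 of the 9 genes and in 6.42% of 33469 promoter windows of the same length. The variant CACGTT was in 3 of the 9 genes and in 4.83% of all windows, the D-box (TTATGTAA or TTACGTAA) in 1 gene and 1.01% of windows, and the ROR element core in 1 gene and 2.63% of windows. The cyclic AMP response element TGACGTCA was in 0 of the 9 genes and in 1.83% of windows. Counted by window, as these percentages are, the 5 motifs were in 1, 3, 1, 1 and 0 of the 11 windows of the 9 genes, in the same order. A match describes letters in this window and not binding, and clock elements also lie outside such windows.

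Clock (ENSRNOG00000002175), the E-box activator, had a log2 difference of 0.05 by the authors' deposited table (unadjusted p = 0.828). This is 1.04-fold, with an approximate 95% interval from 0.744 to 1.45, computed from the likelihood ratio statistic of the authors' deposited table. Its partner Arntl (ENSRNOG00000014448) had a log2 difference of −0.21 by the authors' deposited table (unadjusted p = 0.714). For Arntl, at an average of 21.8 CPM, the fold was 0.866 and the interval wider, from 0.402 to 1.87. Npas2 (ENSRNOG00000013408), the forebrain paralog of Clock, had the largest difference of the 10, a log2 difference of 0.61 by the authors' deposited table (unadjusted p = 0.336). Its fold of 1.53 had an interval from 0.644 to 3.63 at 22.5 CPM. The values of the 3 activators lay on both sides of no difference, and each interval holds 1.

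**Figure D1:**
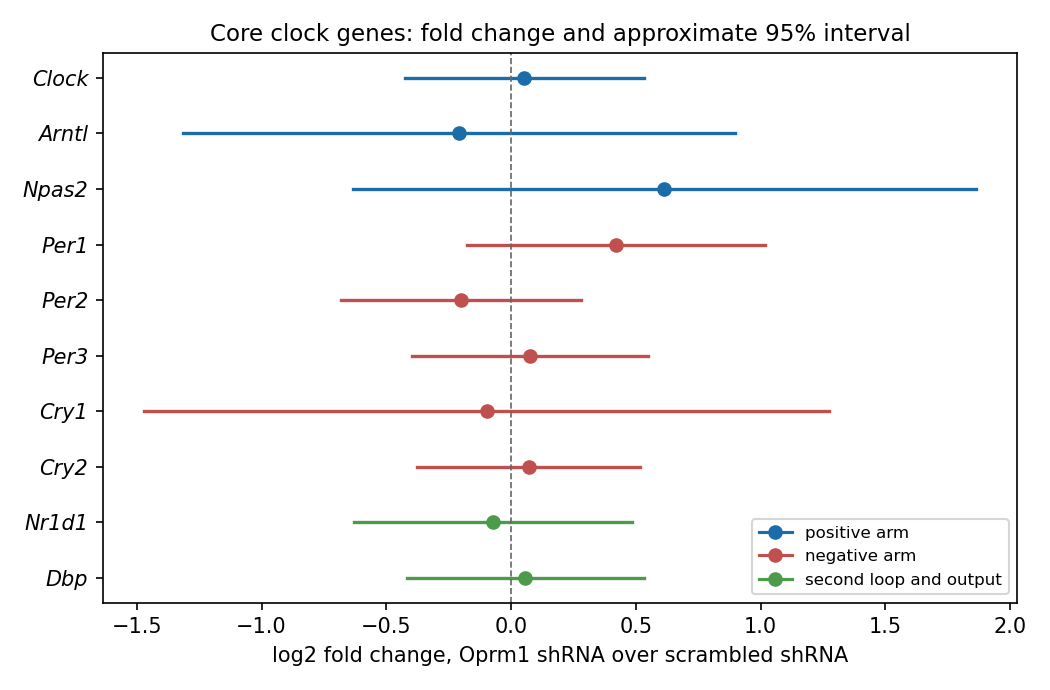
The log2 fold change of each of the 10 clock genes (x axis, Oprm1 shRNA over scrambled shRNA) is drawn as a point with its approximate 95% interval as a line, coloured by role in the loop. All 10 intervals cross 0, and those of Cry1, Npas2 and Arntl are the widest.

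The Period genes encode the repressors that accumulate over the day, and Per1 in particular also responds within hours to light, neuronal activity and corticosteroids. Per1 (ENSRNOG00000007387) had a log2 difference of 0.42 by the authors' deposited table (unadjusted p = 0.168), the smallest p of the 10. The fold was 1.34 at 65.8 CPM, with an interval from 0.884 to 2.02. Per2 (ENSRNOG00000020254) had the opposite sign, with a log2 difference of −0.20 by the authors' deposited table (unadjusted p = 0.415). Its fold was 0.870, with an interval from 0.623 to 1.22. Per3 (ENSRNOG00000018413), which is not needed for rhythms in mice, had a log2 difference of 0.08 by the authors' deposited table (unadjusted p = 0.754), and its fold of 1.05 had an interval from 0.760 to 1.46. The intervals of the 3 Period genes overlap. Whether Per1 and Per2 differ from each other was not tested, since this needs values per sample, which were not analysed here.

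The Cryptochromes are the stronger repressors of the CLOCK and ARNTL pair. Cry1 (ENSRNOG00000006622) had a log2 difference of −0.10 by the authors' deposited table (unadjusted p = 0.889). At 17.7 CPM it was the least abundant of the 10 in reads, and its fold of 0.934 had an interval from 0.361 to 2.42. Cry2 (ENSRNOG00000007478) had a log2 difference of 0.07 by the authors' deposited table (unadjusted p = 0.754). Its fold of 1.05 had the narrowest interval of the 10, from 0.771 to 1.43, at 123 CPM. A given difference in Cry1 would thus have to be larger than in Cry2 to be seen: the approximate interval clears 1 beyond 2.59-fold for Cry1 and beyond 1.36-fold for Cry2.

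Nr1d1 and Dbp are direct E-box targets whose transcripts swing widely over the day in rodent tissues. Nr1d1 (ENSRNOG00000009329) had a log2 difference of −0.07 by the authors' deposited table (unadjusted p = 0.797). The fold was 0.951, with an interval from 0.647 to 1.40, at 63.0 CPM. Dbp (ENSRNOG00000021027) had a log2 difference of 0.06 by the authors' deposited table (unadjusted p = 0.814). The fold was 1.04, with an interval from 0.749 to 1.45, at 102 CPM. Differences in Dbp beyond 1.45-fold higher lie outside this interval, as do differences in Nr1d1 beyond 1.40-fold higher.

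**Figure D2:**
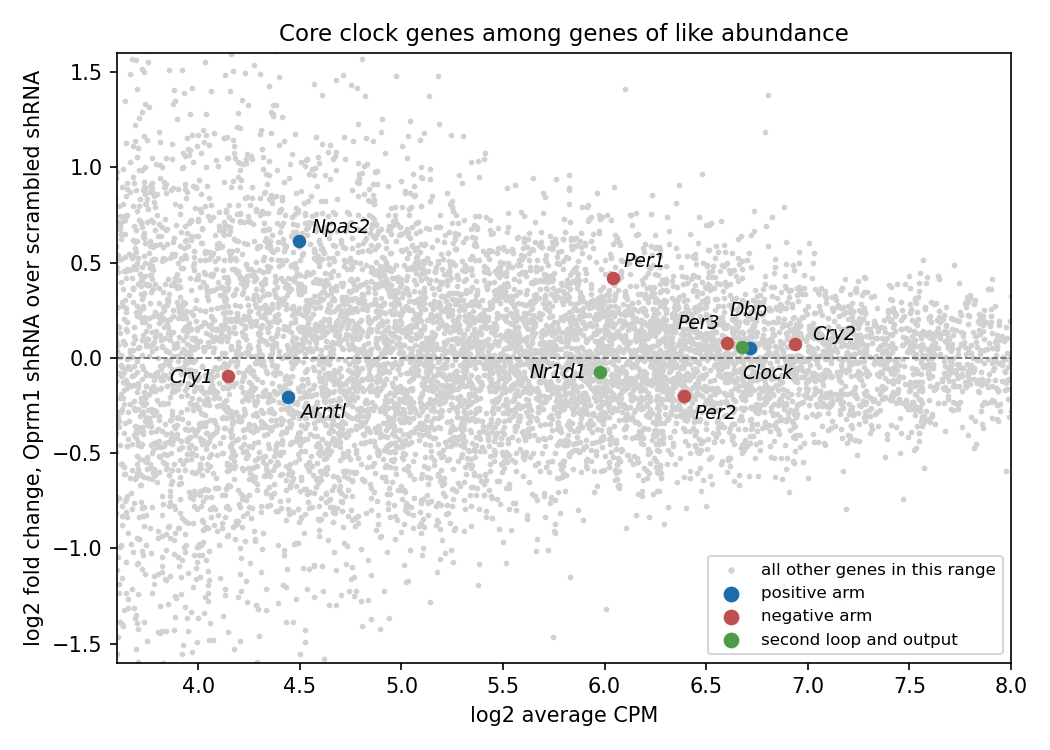
Each point is a gene, with the log2 average CPM on the x axis and the log2 fold change on the y axis, and the 10 clock genes are coloured by role and named. The clock genes lie within the cloud of genes of like abundance, Npas2 and Per1 towards its upper side (genes beyond the plotted range are not drawn).

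The labels give no clock time, light schedule or order of collection, so they do not say whether the groups were collected at different times of day. Clock genes of opposite phase are described here. Transcripts driven through E-box or D-box elements peak in rodents at another part of the day than those driven through ROR elements. The E-box and D-box list held 11 genes, all measured: Per1, Per2, Per3, Nr1d1, Nr1d2, Dbp, Tef, Hlf, Ciart, Usp2 and Bhlhe41. Of these, 5 were higher and 6 lower, and the median log2 difference was −0.04 in the authors' deposited table. Of the 5 genes of the ROR element list (Arntl, Clock, Npas2, Cry1 and Nfil3), 2 were higher and 3 lower, with a median of −0.10 on the log2 scale in the authors' deposited table. Cry1, whose own value is the median of the ROR element list, is as a Cryptochrome gene also activated through E-boxes. Clock itself varies little over the day in most rodent tissues. Neither list had a gene at an unadjusted p under 0.05, beside 4.39% of all genes. Counts of 0 in lists this short are near that background. The members of each list lay on both sides of 0. Peak hours within a list were not compared, so mixed signs and medians do not say whether collection times differed. A difference in collection time was not tested.

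The E-box and D-box genes with an average of at least 32 CPM give the tightest values. There were 7 of them, 3 higher and 4 lower, with log2 fold changes between −0.21 and 0.42 in the authors' deposited table and fold intervals whose outer limits were 0.623 and 2.02. Their median log2 difference was −0.04 in the authors' deposited table, and of the ROR element genes Clock alone was as abundant, with the value given above. Among them, Nr1d2, the REV-ERB beta gene and paralog of Nr1d1, had a log2 difference of −0.04 by the authors' deposited table and a fold interval from 0.730 to 1.30. Tef, a D-box factor related to Dbp, had a log2 difference of −0.21 in the authors' deposited table, and its fold of 0.864 had an interval from 0.685 to 1.09. The less abundant genes of both lists were read with wide errors. Ciart, a repressor of the CLOCK and ARNTL pair, had a log2 difference of 0.75 by the authors' deposited table and a fold interval from 0.482 to 5.86. Hlf, the third D-box activator, had a log2 difference of 1.02 in the authors' deposited table, with a fold interval from 0.194 to 21.3. Nfil3, which represses at D-boxes, had a log2 difference of −2.18 by the authors' deposited table, with a fold interval from 0.0175 to 2.78 at 5.98 CPM. Usp2 and Bhlhe41 had log2 differences of −0.42 and −0.31 in the authors' deposited table, and their fold intervals reached from 0.172 to 3.26 and from 0.199 to 3.26. A difference between the lists was not tested, and a shift in collection time that moves these transcripts by less than their intervals could not be seen in this comparison.

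**Figure D3:**
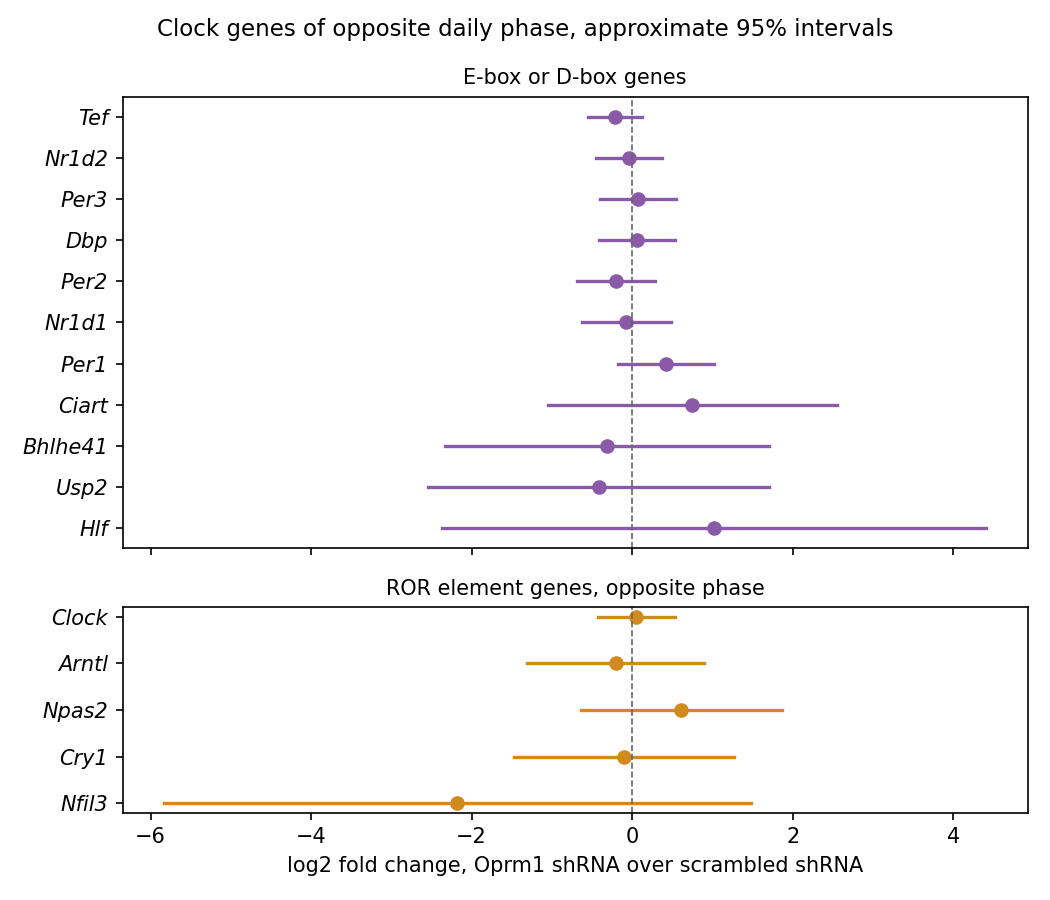
Log2 fold changes (x axis, Oprm1 shRNA over scrambled shRNA) of clock genes of opposite daily phase are drawn with approximate 95% intervals, ordered within each panel by standard error. The 11 E-box or D-box genes (top) and the 5 ROR element genes (bottom) lie on both sides of 0.

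Hours of collection can also vary within a group, which bears on the spread of clock transcripts among its samples. The spread between samples enters the table through the standard error implied by the likelihood ratio, which was therefore set beside that of the genes nearest in abundance, 250 on either side. All 10 clock genes had an implied standard error below the median of their neighbours, as did 50.5% of all genes against their own. The ratio to that median ran from 0.835 for Arntl to 0.979 for Cry2, with a median of 0.933 over the 10. Arntl stood at percentile 6.19 among its neighbours, Nr1d1 at 6.59 and Per2 at 9.98, while Clock stood highest, at 43.1. For Dbp the implied standard error on the log2 scale was 0.242, beside 0.255 for its neighbours, and for Nr1d1 it was 0.284 beside 0.330. These are descriptions with no test, the 10 genes share the same libraries, and edgeR can draw the spread of each gene towards a common trend by a setting that was not given in the sources used here. Hours of collection were not tested by this.

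**Figure D4:**
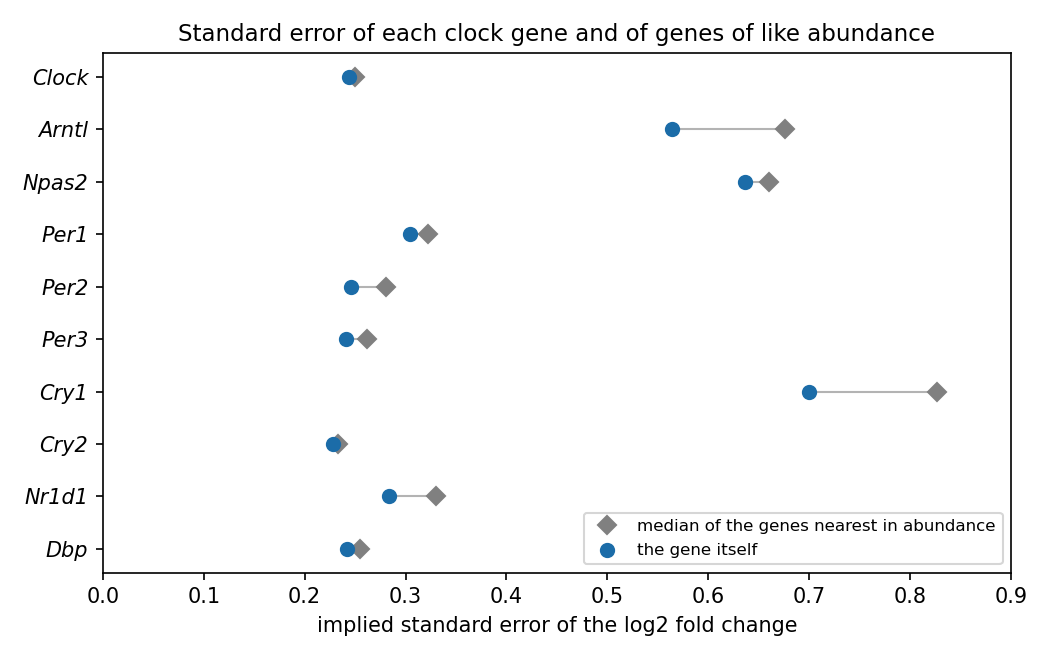
The implied standard error of the log2 fold change (x axis) of each clock gene (circles) is set beside the median of the genes nearest to it in abundance (diamonds). Each circle lies to the left of its diamond, closest for Cry2 and Clock and farthest apart for Cry1 and Arntl.

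The wider clock machinery was described from 22 measured regulators beside the 10. By the authors' deposited table, 9 of the 22 were higher and 13 lower, and the median log2 difference was −0.09. Under an adjusted or an unadjusted p of 0.05 the count was 0, beside 0.0202% and 4.39% of all genes. A count of 0 in a list of this size is near both shares. Csnk1e, the casein kinase 1 epsilon that phosphorylates PER proteins and marks them for breakdown, had the smallest p of the list, 0.120, at a log2 difference of −0.39 by the authors' deposited table. Its fold was 0.765, with an interval from 0.547 to 1.07. The 9 kinases, ubiquitin ligases and the deubiquitinase had 4 higher and 5 lower, and their median in the authors' deposited table was −0.14. Among the nuclear receptors, Rorb had the smallest p, 0.736, at a log2 difference of 0.36 by the authors' deposited table. Nono, a PER partner, had a log2 difference of 0.17 in the authors' deposited table (unadjusted p = 0.514). At 1.07 CPM, Rora, an activator at ROR elements, was too sparse for a fold to be read, with an interval from 0.00318 to 371.

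Signals that act on the clock genes were described from lists of other genes. Corticosteroids, whose level follows a daily rhythm, raise Per1. Of 9 genes that they induce, 3 were higher and 6 lower, and the median log2 difference was −0.15 in the authors' deposited table. None of the 9 had an unadjusted p under 0.05 there, beside 4.39% of all genes. The smallest unadjusted p-values in that list were those of Cdkn1a, a cell cycle inhibitor, at 0.140 and of Errfi1, a feedback inhibitor of the EGF receptor, at 0.216. Their log2 differences were −1.74 and −0.52 by the authors' deposited table. The fold interval of Cdkn1a ran from 0.0600 to 1.48 at 9.97 CPM, and that of Errfi1 from 0.394 to 1.23. Of 11 immediate early genes, a readout of recent neuronal firing, 6 were higher and 5 lower. Their median log2 difference was 0.17 in the authors' deposited table. The 11 averaged between 0.801 and 25.9 CPM, and the outer limits of their fold intervals were 0.000278 and 1213. For the sparsest of them neither a fold nor its sign can be read, which limits both the count and the median. Egr1 and Nr4a1 were the 2 of 11 with an unadjusted p under 0.05, beside 4.39% of all genes, at log2 fold changes of −1.88 (p = 0.000822) and −2.34 (p = 0.0424) in the authors' deposited table, where their adjusted p-values were 0.643 and 0.9997.

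Body temperature follows the daily rhythm, and cold-inducible and heat shock genes follow it in turn. Of 8 such genes, 3 were higher and 5 lower, and 1 had an unadjusted p under 0.05, beside 4.39% of all genes. A count of 1 in so short a list is near that background. The gene was Rbm3, a cold-inducible RNA-binding protein gene, at a log2 difference of 0.56 in the authors' deposited table (unadjusted p = 0.0444, adjusted p = 0.9997). The fold of Rbm3 was 1.48, with an interval from 1.01 to 2.17, at 91.0 CPM. The related cold-inducible gene Cirbp, which like Rora above was named only once values were known, had a log2 difference of −0.27 in the authors' deposited table and a fold interval from 0.584 to 1.19. Hspa8, a constitutive chaperone gene, had the next smallest p, 0.123, at a log2 difference of −0.07 by the authors' deposited table. The part of these genes in the values of the clock genes was not tested.

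The tissue was checked against marker genes. Of 11 markers of the suprachiasmatic nucleus, 9 were measured, all but Nms and Prok2, at averages between 1.79 and 48.2 CPM, of which Zfhx3, also expressed outside that nucleus, was the most abundant. By the authors' deposited table, 4 were higher and 5 lower and the median log2 difference was −0.09. The smallest unadjusted p-values in the authors' deposited table were 0.124 for Avp, at a log2 difference of −2.04, and 0.407 for Rgs16, at 0.38. The fold interval of Avp ran from 0.0399 to 1.47 at 16.0 CPM, and that of Rgs16 from 0.695 to 2.45. All 10 preoptic markers were measured, up to 360 CPM for the calcitonin receptor gene Calcr, with 8 higher and 2 lower and a median of 0.11 on the log2 scale in the authors' deposited table. Of the glial and vascular markers, 2 of 5 for astrocytes, 0 of 5 for oligodendrocytes, 1 of 4 for microglia and 2 of 4 for endothelium were higher. Of the 5 neuronal markers 2 were higher. Map2 was the only one of these markers at an unadjusted p under 0.05, beside 4.39% of all genes. Its unadjusted p was 0.00635, at a log2 difference of −0.15 by the authors' deposited table. The implied standard error of Map2 was 0.378 of the median of its neighbours. The part of cell makeup in the clock gene values was not tested.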

How the data were processed

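RNA from the MPOA was sequenced by the authors from standard Illumina libraries, per the labels' protocols. Per the submitters' processing notes, the authors used build Rnor_6.0 with STAR 2.5.3a, RSEM, edgeR 3.28.0 and bcl2fastq 2.20. Annotation, filters, dispersion setting and covariates are not given in the sources used here. For each gene the authors deposited a log2 fold change (Oprm1 shRNA over scrambled shRNA) and a log2 average CPM. Beside these, the authors deposited a likelihood ratio score from edgeR and an unadjusted and an adjusted p-value across all genes. The deposited p-values follow from that score by a chi-square test on 1 degree of freedom, checked on all 14855 genes, and the adjusted ones imply 14859 tests.

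Values per sample were not analysed here and depth is unknown, so the count test planned for such values was not run and the deposited test was used as given. A standard error was implied as the absolute log2 fold change over the square root of the likelihood ratio, and an approximate 95% interval as 1.96 of these on either side. The likelihood ratio takes the spread of each gene as known, and RSEM shares reads between similar transcripts by estimate. The calculation was tested on simulated data with normal errors of known size. That checks its arithmetic, and not how well the interval holds for a likelihood ratio from edgeR. Python 3.11.15, numpy 2.4.6, pandas 2.3.3 and scipy 1.17.1 were used.

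The clock genes and all lists were chosen with earlier results of these data known. Named genes are the 10 clock genes, those of both phase lists, the gene of smallest p in each group of the wider list, and in other lists up to 2 of smallest p and a most abundant marker. Alternatives were another threshold, abundance minimum, fold minimum, centring and standard error.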

Additional observations from a re-analysis of the deposited data

How the results depend on the processing

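The count of clock genes past the threshold was 0 under each of the 8 alternatives: the adjustment redone, an adjusted p under 0.1 or 0.01, an unadjusted p under 0.05, a minimum log2 average CPM of 0 or 4, a minimum of 1.5-fold, and the standard error of the genes nearest in abundance. Of these, the adjusted p under 0.01 and the minimum of 1.5-fold could only give 0, since they narrow a count that was already 0. An adjusted p is never below its unadjusted p. For the 10 genes the smallest unadjusted p was 0.168, and 0.192 with the standard error of neighbours. The adjusted p under 0.1, the minima of log2 average CPM and the standard error of neighbours could thus also only give 0. The adjustment redone repeats the deposited one. Over all genes the authors' deposited table gives 3, against 652 at an unadjusted p under 0.05, 1 with a minimum of 1.5-fold and 34 with the standard errors of neighbouring genes, and the other alternatives gave 2 to 4. The log2 fold changes of the 10 clock genes, centred on the median of all genes or of neighbours or read with the standard error of neighbours, kept their sign in all 30 values, with no unadjusted p under 0.05, the smallest p being 0.150, for Per1. Much of this was fixed beforehand. The standard error of neighbours leaves the sign as it is and, being larger than the gene's own for all 10, can only raise p. The median of all genes, −0.02, is nearer to 0 than any of the 10 values (nearest 0.05, for Clock), so centring on it could not change a sign. No paired analysis was possible because the table holds no values per sample, and for the same reason leaving out a replicate and other size factors were not run. The number of samples and the low abundance of Cry1, Arntl and Npas2 limit what can be seen.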

Other observations

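Ciart, the gene of the CHRONO repressor, had more E-boxes than any of the other clock promoters searched, 3 in its window of 300 bases. They lie 93, 35 and 21 bases before the start, on chromosome 2 of GRCr8 in RefSeq, and are shown in that order with the E-box in capitals.
Ciart E-box, at 93: tgtatctagagtCACGTGttgccggcaaag
Ciart E-box, at 35: cgcagggggaggCACGTGcagagccgcacg
Ciart E-box, at 21: cgtgcagagccgCACGTGtctgggaggggg

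In the wider clock list 5 of the 19 genes with a promoter entry held the E-box CACGTG (Bhlhe40, Bhlhe41, Ciart, Tef and Gsk3b), beside 6.42% of all promoter windows. The implied standard error lay below that of neighbours in abundance for 15 of the 22 measured genes of the wider list, with Csnk1e lowest, at percentile 7.98. It lay above for all 5 oligodendrocyte markers, with ratios from 1.09 to 1.47. Of the 9 measured markers of the suprachiasmatic nucleus it lay below for 6, with a median ratio of 0.963 and the lowest, 0.856, for Syt10. Among the other 3, Avp, a vasopressin gene that neurons of the suprachiasmatic and other hypothalamic nuclei express, stood at percentile 98.0 of its neighbours, with a ratio of 1.53, and Vip at 93.8, with a ratio of 1.33. These genes were named after their values were seen.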
